A study of Mus musculus with 4 samples.

Results

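Macrophages from mammary tumors were compared with macrophages from remodeling mammary glands of tumor-free mice, taking both Ets2 labels of the study together. Each side had 2 Affymetrix mouse arrays. On the remodeling side, 1 array held cells of wild-type females in which Ets2 is expressed and 1 held cells in which 2 copies of Ets2 were deleted. On the tumor side, the cells came from early-stage mammary tumors induced by PyMT, the polyoma middle T oncogene. Of those arrays, 1 is titled wildtype and described as Ets2-expressing, but its source label gives 1 copy of Ets2, and 1 held cells with 2 copies of Ets2 deleted. The control genotype therefore changed together with the tumor state, and the 2 cannot be told apart in the Ets2-expressing pair. Macrophages of all mice carried YFP (yellow fluorescent protein), by which they were sorted. Each of the 4 genetic groups gave 1 RNA sample. The number and age of the animals, the promoter that drives YFP or the Ets2 deletion, and the stage of gland remodeling are not given in the sources used here.

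The genes described are those for which both tumor arrays lay above both remodeling arrays, or both below. Such genes are called apart here, and the distance between the nearest tumor and remodeling arrays is called the gap. Gaps, levels and differences are all on the log2 scale, so that a gap of 1 is 2-fold. Of 12393 genes measured, 7473 were bright, meaning that 1 array or more reached its own median over all probe sets. Among the bright genes, 2343 (31.4%) were apart with tumor higher and 1601 (21.4%) with tumor lower. A gap of at least 2-fold was found for 200 genes with tumor higher (2.68%) and 28 with tumor lower (0.375%). All these shares are over the bright genes. Where a list is counted over all its measured members, dim ones included, no matching share over all measured genes is given. The balance of the directions moved with the scaling of the arrays. Of all genes apart, 59.4% were higher in tumor with the values as deposited, 55.8% after quantile normalization, 33.8% after centring each array on its median and 36.0% when the hybridization control probe sets served for centring. Of the genes apart at least 2-fold, the share with tumor higher was 87.7%, 84.9%, 77.4% and 79.7% in the same order. The median difference of all genes was 0.05 with the values as deposited and -0.14 and -0.10 after the 2 centrings.

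Macrophages enter the mammary gland during its remodeling, where they engulf dying cells and alter the matrix around ducts. Those of tumors arise largely from recruited monocytes and are known for uptake of debris and lipid, for secreted proteases and chemokines, and for effects on vessels and tumor cell spread. ETS2 is a DNA-binding factor of the ETS family that acts downstream of growth factor and MAP kinase signals in macrophages. The comparison asks what distinguishes tumor from remodeling macrophages irrespective of the Ets2 label.

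The promoters of 5 genes that carry the contrast are shown first. Saa1, Saa2 and Lcn2 encode secreted acute-phase and defense proteins and are among the 15 tumor-high genes with the widest gaps, which Saa1 leads. Gpnmb, a glycoprotein of phagocytic macrophages, has the widest gap among the genes of the lipid-associated macrophage list. Ccr3, the eotaxin receptor, has the widest gap with tumor lower. Each sequence is RefSeq, build GRCm38.p6, 300 bases running from 250 before to 50 after the gene's start, written 5′ to 3′ on the gene's strand. Capitals mark matches on either strand to the letters of 4 motifs. They are TTGCNNAA for C/EBP, which was searched as a core with both middle bases free, and AGGAAG for the core that ETS factors bind. For the erythroid and eosinophil GATA factors the letters were AGATAA. For the M-box bound by MITF and its relatives, factors of lysosomal and pigment cell genes, they were TCATGTG. The E-box letters CACGTG were searched as well, without a match in these windows. For NF-kappa-B only the fixed letters GGACTTTCC were searched, with no base left free, also without a match. Other forms of an NF-kappa-B site were not searched, so their absence is not shown. The windows are chr7:46742931-46743230 on the minus strand for Saa1, chr7:46751583-46751882 on the plus strand for Saa2, chr2:32387690-32387989 on the minus strand for Lcn2, chr6:49036268-49036567 on the plus strand for Gpnmb, and chr9:124021721-124022020 on the plus strand for Ccr3.
Saa1: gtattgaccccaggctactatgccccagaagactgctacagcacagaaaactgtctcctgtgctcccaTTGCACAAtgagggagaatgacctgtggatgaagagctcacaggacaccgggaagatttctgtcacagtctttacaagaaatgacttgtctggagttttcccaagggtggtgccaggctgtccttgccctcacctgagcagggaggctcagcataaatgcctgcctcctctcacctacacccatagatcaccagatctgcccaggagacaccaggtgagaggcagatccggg
Saa2: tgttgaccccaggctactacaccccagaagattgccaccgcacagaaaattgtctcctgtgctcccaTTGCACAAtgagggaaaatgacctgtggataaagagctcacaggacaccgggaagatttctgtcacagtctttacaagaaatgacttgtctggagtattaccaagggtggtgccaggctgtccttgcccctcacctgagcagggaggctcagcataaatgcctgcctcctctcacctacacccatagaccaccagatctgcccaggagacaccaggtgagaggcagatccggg
Lcn2: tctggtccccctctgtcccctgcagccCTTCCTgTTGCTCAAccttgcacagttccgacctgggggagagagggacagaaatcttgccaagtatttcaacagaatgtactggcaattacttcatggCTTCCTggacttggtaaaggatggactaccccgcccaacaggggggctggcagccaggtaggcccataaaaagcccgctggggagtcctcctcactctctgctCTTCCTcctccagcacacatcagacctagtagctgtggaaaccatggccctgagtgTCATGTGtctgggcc
Gpnmb: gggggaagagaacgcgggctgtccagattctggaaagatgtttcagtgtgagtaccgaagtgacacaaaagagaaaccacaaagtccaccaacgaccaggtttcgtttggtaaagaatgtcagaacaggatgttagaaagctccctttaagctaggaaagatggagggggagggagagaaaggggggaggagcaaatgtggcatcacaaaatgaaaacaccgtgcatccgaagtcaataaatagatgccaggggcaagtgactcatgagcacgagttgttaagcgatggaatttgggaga
Ccr3: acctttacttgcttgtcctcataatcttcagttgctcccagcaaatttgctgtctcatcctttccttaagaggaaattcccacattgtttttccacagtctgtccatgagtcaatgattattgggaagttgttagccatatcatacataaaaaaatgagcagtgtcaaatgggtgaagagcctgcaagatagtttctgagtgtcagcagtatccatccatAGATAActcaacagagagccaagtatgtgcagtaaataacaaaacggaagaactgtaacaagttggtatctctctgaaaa
The Saa1 and Saa2 windows were 95.3% identical (287 of 301 aligned columns), and both held the C/EBP letters, beginning 182 and 183 bases before the start. Lcn2 held the C/EBP letters at 216 bases before the start, the ETS letters 3 times and the M-box letters once. The capitals in Lcn2 read TTGCTCAA for C/EBP and CTTCCT, the other strand of AGGAAG, for ETS. Ccr3 held the GATA letters once, 30 bases before the start, and the Gpnmb window held none of the letters searched. Of 32851 promoter windows in the RefSeq table, 10.8% held the C/EBP letters, 35.4% the ETS letters, 11.2% the GATA letters, 3.77% the M-box letters, 7.15% the E-box and 0.344% the NF-kappa-B letters. Among the 200 tumor-high genes, 149 matched the table with 187 windows, of which 13.9% held C/EBP, 36.9% ETS, 5.88% GATA, 5.88% M-box, 7.49% E-box and 1.6% NF-kappa-B letters. The 28 tumor-low genes had 25 windows from 21 genes, and 6 windows held C/EBP, 11 ETS, 6 GATA, 2 M-box, 4 E-box and 0 NF-kappa-B letters. A match is only a match of letters and was not tested as a binding site.

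The labels were checked first with Ets2 and with the macrophage list. Ets2 read 13.24 (Ets2-expressing) and 12.97 (Ets2-deficient) on the remodeling arrays and 12.76 and 12.67 on the tumor arrays. Both tumor arrays were therefore lower than both remodeling arrays, by a gap of 0.20. The arrays labelled Ets2-deficient were only slightly below their partners, and whether the probe set lies in the deleted part of the gene is not given in the sources used here. Of 21 macrophage identity genes measured, such as Csf1r, Adgre1 and C1qc, 20 were at or above the array median on every array. Their summed intensity on the linear scale was 85640 and 85773 on the remodeling arrays and 88040 and 88040 on the tumor arrays. The list had a median difference of 0.02, which was negative after either centring. Among its 20 bright members, 6 were apart with tumor higher and 3 with tumor lower, beside 31.4% and 21.4% of all bright genes. The list was thus apart no more often than all bright genes. Spi1, which encodes the myeloid factor PU.1, read 8.93 and 9.02 on the remodeling arrays and 9.49 and 9.47 on the tumor arrays. Aif1, an actin-binding protein of macrophages, read 10.51 and 10.90 against 11.29 and 11.46. Adgre1, the F4/80 antigen, was the reverse at 11.60 and 11.45 against 11.40 and 11.06.

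Array medians ran from 5.98 to 6.30, and Pearson correlations between arrays over all probe sets from 0.968 to 0.987. The 2 arrays of a side differed by a median of 0.26 for tumor and 0.23 for remodeling over the bright genes. The 3′ minus 5′ signal of the Actb control probe sets, which grows as RNA or cDNA gets shorter, was 2.72 and 2.96 on the remodeling arrays and 3.30 and 3.54 on the tumor arrays. For Gapdh it was 1.61 and 1.80 against 2.45 and 2.27. For Tfrc the order was the reverse, at 5.75 and 5.96 against 5.03 and 5.27. These values moved with the tumor and remodeling groups, and their part in the gene differences was not tested.

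**Figure D1:**
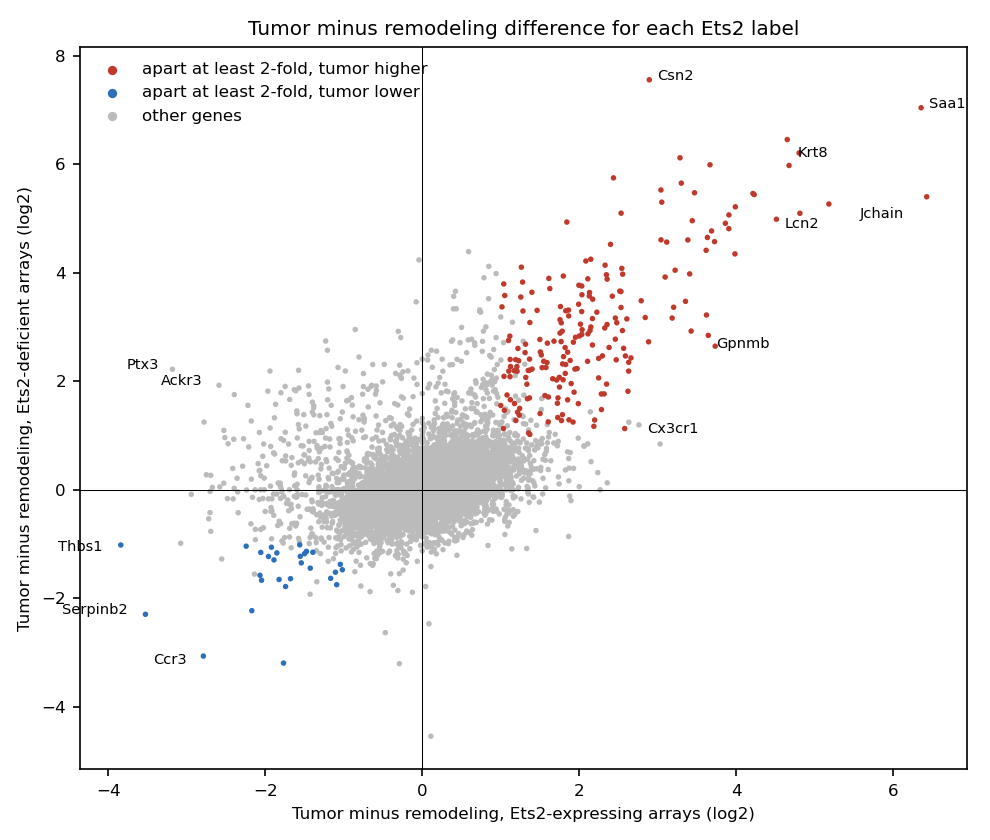
Difference between tumor and remodeling (log2) on the Ets2-expressing arrays (horizontal) and on the Ets2-deficient arrays (vertical), 1 point for each of 7473 bright genes. The 200 genes apart at least 2-fold with tumor higher lie in the upper right and reach far beyond the 28 with tumor lower; Ptx3 and Ackr3 lie in the upper left, where the labels differ in sign.

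The 15 widest gaps with tumor higher included genes of secreted defense proteins, antibody chains and mammary epithelium, and others outside these classes. Saa1 (serum amyloid A, an acute-phase apolipoprotein) read 4.68 and 4.63 on the remodeling arrays and 11.04 and 11.67 on the tumor arrays, here and below in the order Ets2-expressing, Ets2-deficient. It had the widest gap of all bright genes, 6.35, and a mean difference of 6.70 ± 0.27 (SE, 2 arrays a side; limma adjusted p = 0.00502). Its other probe set was apart as well, with a gap of 4.49. Saa2 read 5.41 and 5.38 against 10.22 and 10.47. The Saa1 and Saa2 probe sets are of the types that can share probes between near-identical transcripts, so the split between these genes is uncertain. Lcn2, which encodes the siderophore-binding lipocalin of neutrophil granules and inflamed epithelium, read 7.51 and 7.36 against 12.02 and 12.35. All 3 genes were at or below 7.51 on both remodeling arrays and at or above 10.22 on both tumor arrays. Chil1, a secreted chitinase-like protein made by macrophages and epithelium, read 6.02 and 6.05 against 10.00 and 10.40. Lrg1, another acute-phase glycoprotein, read 7.75 and 7.33 against 9.51 and 10.71.

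Antibody genes formed a second set. Igha, the constant chain of IgA, read 6.70 and 6.82 on the remodeling arrays and 11.87 and 12.08 on the tumor arrays, and its 3 probe sets had gaps from 5.06 to 7.25. Jchain, which joins IgA and IgM into polymers, read 4.31 and 5.35 against 10.73 and 10.76. Jchain was below the array median on both remodeling arrays, and both genes were far above it on the tumor arrays. The kappa light-chain probe set Igk showed a smaller gap of 1.18, from 9.05 and 10.15 to 11.33 and 11.63. Probe sets for antibody chains can detect related gene segments, so single segments are uncertain. Of 14 B and plasma cell genes measured, 8 were apart with tumor higher and 0 with tumor lower. A gene dim on the remodeling arrays, such as Jchain, could be bright only through the tumor arrays. Of the 12 bright members, 7 were apart with tumor higher (31.4% of all bright genes were) and 0 with tumor lower, and 2 were apart at least 2-fold. The 2 were Jchain and Cd22, an inhibitory receptor of B cells at 5.65 and 6.57 against 7.83 and 7.74. Cd79a, a part of the B cell receptor, read 5.53 and 6.11 against 7.59 and 6.91. The other 5 bright members overlapped between the groups. Among these was Ighm, the heavy chain of IgM, at 9.10 and 10.26 against 10.04 and 10.49 on its brightest probe set. Its 6 bright probe sets disagreed, with mean differences that ran in size from -0.18 to 2.17, so the result for Ighm depends on the probe set. The list's summed intensity was 4676 and 5654 on the remodeling arrays and 8530 and 8046 on the tumor arrays, and 7, 10, 12 and 11 members were at or above the array median in that order.

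**Figure D2:**
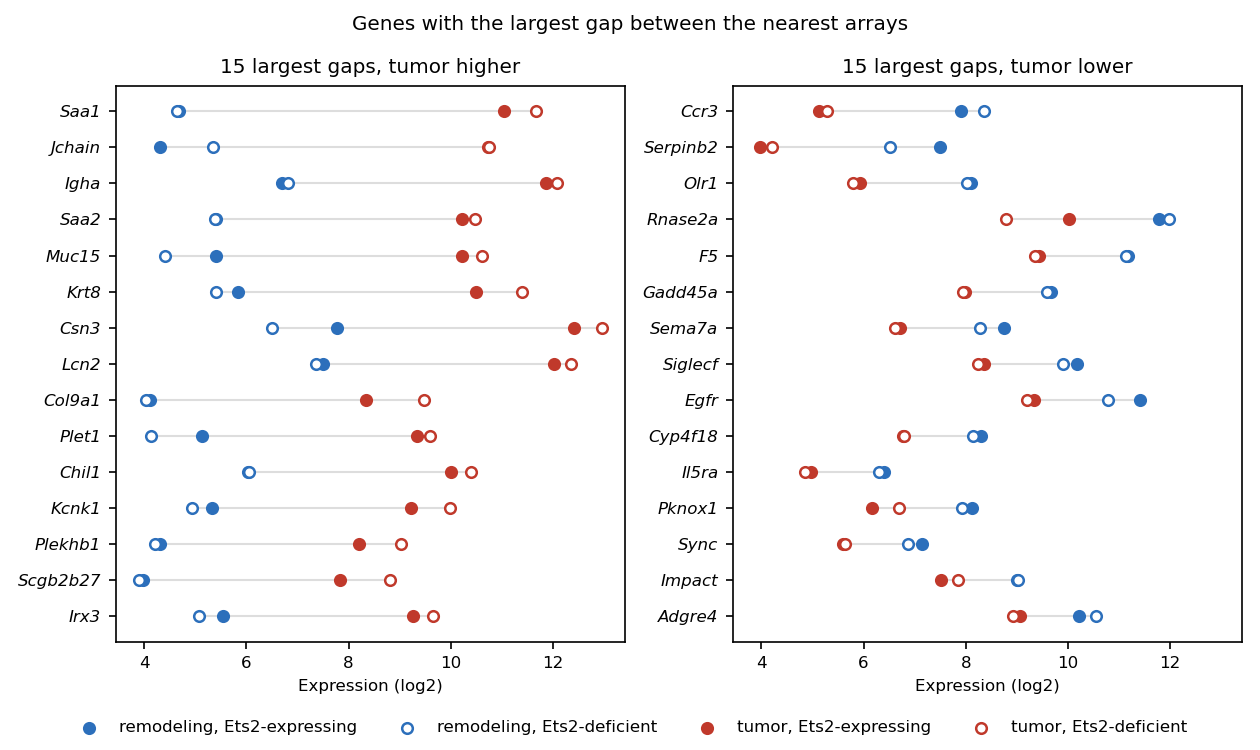
Expression (log2) of the 15 genes with the widest gaps in each direction, with 1 point per array; filled points are Ets2-expressing arrays and open points Ets2-deficient arrays. In both panels the 2 tumor points and the 2 remodeling points do not overlap, and the distances are longer in the left panel, from Saa1 with a gap of 6.35, than in the right panel, from Ccr3 with a gap of 2.63.

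Most mammary epithelial genes were higher on the tumor arrays. Of 23 measured, 15 were bright, and all 15 were apart with tumor higher, 12 of them at least 2-fold, against 2.68% of all bright genes. A gene that is dim on the remodeling arrays could enter the bright set only through the tumor arrays, so the list was also read over all 23. Of these, 19 were apart with tumor higher and 0 with tumor lower, and the median difference was 2.15, beside 0.05 over all genes. The other 4, Foxa1, Pgr, Cldn4 and Elf3, were dim on all arrays and overlapped between the groups, with mean differences from -0.41 to 0.13. Krt8, a keratin of luminal cells, read 5.83 and 5.41 on the remodeling arrays and 10.50 and 11.39 on the tumor arrays, and its 3 probe sets gave gaps from 3.93 to 4.67. Elf5, the ETS factor of milk-secreting cells, read 4.19 and 4.31 against 7.87 and 9.09. Cldn7, a tight junction protein, read 5.64 and 5.00 against 8.76 and 9.56. The surface antigen Epcam read 5.84 and 4.75 against 8.38 and 8.83. On all 4 genes the tumor arrays lay well above the remodeling arrays and the Ets2-deficient tumor array was the higher. The list's summed intensity was 1057 and 739 on the remodeling arrays and 6384 and 10560 on the tumor arrays, and 3, 2, 14 and 15 of the 23 genes were at or above the array median.

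Milk protein genes were higher on the tumor arrays as well, with a larger spread. Of 13 measured, 12 were bright. Of these, 10 were apart with tumor higher, 8 of them at least 2-fold, and 1 (Xdh) with tumor lower. Over all bright genes the shares were 31.4%, 2.68% and 21.4% in that order. Members at or above the array median numbered 3 and 4 on the remodeling arrays and 10 and 12 on the tumor arrays. A gene dim on the remodeling arrays could be bright only through the tumor arrays, so all 13 were read as well. Of these, 10 were apart with tumor higher and 2 with tumor lower, and the median difference was 2.87. Csn3, kappa-casein, read 7.77 and 6.5 on the remodeling arrays and 12.42 and 12.96 on the tumor arrays. Csn2, beta-casein, read 4.64 and 3.68 against 7.53 and 11.24. The 2 tumor arrays thus differed by far more for Csn2 than for Csn3. Csn2 was apart by 2.89 and was not called by limma (adjusted p = 0.179). Lalba, the lactose synthase regulator, read 4.67 and 4.71 against 8.30 and 9.36. Wap, the whey acidic protein, read 4.63 and 4.42 against 7.67 and 9.94. The summed intensity of the list was 1244 and 970 on the remodeling arrays and 9482 and 18523 on the tumor arrays. In RNA from many sorted cells, a different share of another cell type and a different RNA amount per cell cannot be told apart. The part of epithelial, milk and plasma cell RNA in the other tumor-high genes was not tested.

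Further genes with wide gaps were of other kinds. Col9a1, a cartilage-type collagen, read 4.11 and 4.03 against 8.34 and 9.47. Muc15, a membrane mucin, read 5.41 and 4.40 against 10.21 and 10.61. Sox10, a neural crest and mammary progenitor factor, read 5.22 and 4.01 against 8.52 and 9.66. In the Schwann and muscle list, to which Sox10 belongs, 4 of 15 genes were bright. Of these, 3 were apart with tumor higher, beside 31.4% of all bright genes. Acta2 and Ncam1 were the other 2, with gaps of 0.44 and 0.80. Sox10 was bright only on the tumor arrays, so the list was read over all 15 as well. Of these, 5 were apart with tumor higher and 2 with tumor lower. The list median was only 0.04. It turned negative under each of the 3 other scalings.

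Dimness on the remodeling side was common among the 200 tumor-high genes. In 143 of them both remodeling arrays were below their medians, and in 17 both were below their 25th percentiles, where array signals carry little information on level and the fold is uncertain. In 177 the Ets2-deficient tumor array was above the Ets2-expressing tumor array, and in 165 the difference was larger for the Ets2-deficient label. Their median difference was 2.0 for the Ets2-expressing and 2.84 for the Ets2-deficient label. Restricting to the 6375 genes bright on all 4 arrays left 43 with tumor higher (0.675%) and 16 with tumor lower (0.251%) at the 2-fold gap. Of 32 tumor-high genes with several bright probe sets, 30 were apart the same way in every one. At the threshold, Apoc2 lay just inside with a gap of 1.0 and Ltbp2 just outside with 0.999. With tumor lower, Ccl2 lay just inside at -1.02 and Rmdn1 just outside at -0.995.

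Among the genes bright on all arrays, several of phagocytic and lipid-handling macrophages were higher in tumor. Gpnmb read 7.78 and 8.13 on the remodeling arrays and 11.43 and 10.98 on the tumor arrays. Its gap was 2.85 and its mean difference 3.24 ± 0.25 (SE, 2 arrays a side; limma adjusted p = 0.0217). The lipid-associated macrophage list held 17 bright genes, of which 11 were apart with tumor higher and 1 with tumor lower, against 31.4% and 21.4% of all bright genes, and its median difference was 0.30. Itgax, the CD11c integrin chain, read 8.94 and 9.44 against 10.88 and 11.24. Mmp12, the macrophage elastase, read 7.79 and 8.94 against 9.93 and 10.38. Fabp5, a fatty acid carrier, read 11.70 and 11.87 against 12.82 and 12.39. Cd36, a scavenger receptor for oxidized lipid, was the member with tumor lower, at 10.73 and 11.41 against 10.42 and 10.15. Thus most of the list was higher in tumor and its lipid uptake receptor was lower. Apoc1 and Acp5, an apolipoprotein and the tartrate-resistant acid phosphatase, were not on the list and were picked after their values were seen. Apoc1 read 7.02 and 7.03 against 8.52 and 8.44, and Acp5 read 7.28 and 7.81 against 9.06 and 9.19.

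Genes for uptake of dying cells and for scavenging were apart about as often as all bright genes. Of 18 bright members, 6 were apart with tumor higher and 4 with tumor lower, near the 31.4% and 21.4% of all bright genes, and the median difference was 0.00, negative after either centring. Mfge8, which bridges phosphatidylserine on dying cells to integrins and is also a milk fat globule protein, read 9.12 and 8.72 against 10.97 and 11.26. Itgb5, an integrin chain that binds MFG-E8, read 8.02 and 8.76 against 10.65 and 11.11. Havcr2, the phosphatidylserine receptor TIM-3, read 6.37 and 6.12 against 8.34 and 8.35. Axl, a kinase receptor for apoptotic cells, read 9.45 and 9.44 against 10.06 and 10.11. On the other side, the oxidized LDL receptor Olr1 read 8.11 and 8.02 against 5.94 and 5.79, and the hemoglobin scavenger receptor Cd163 read 12.71 and 12.82 against 12.51 and 12.22. Mertk, another kinase receptor for apoptotic cells, overlapped between the groups at 10.22 and 10.66 against 10.07 and 10.24.

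**Figure D3:**
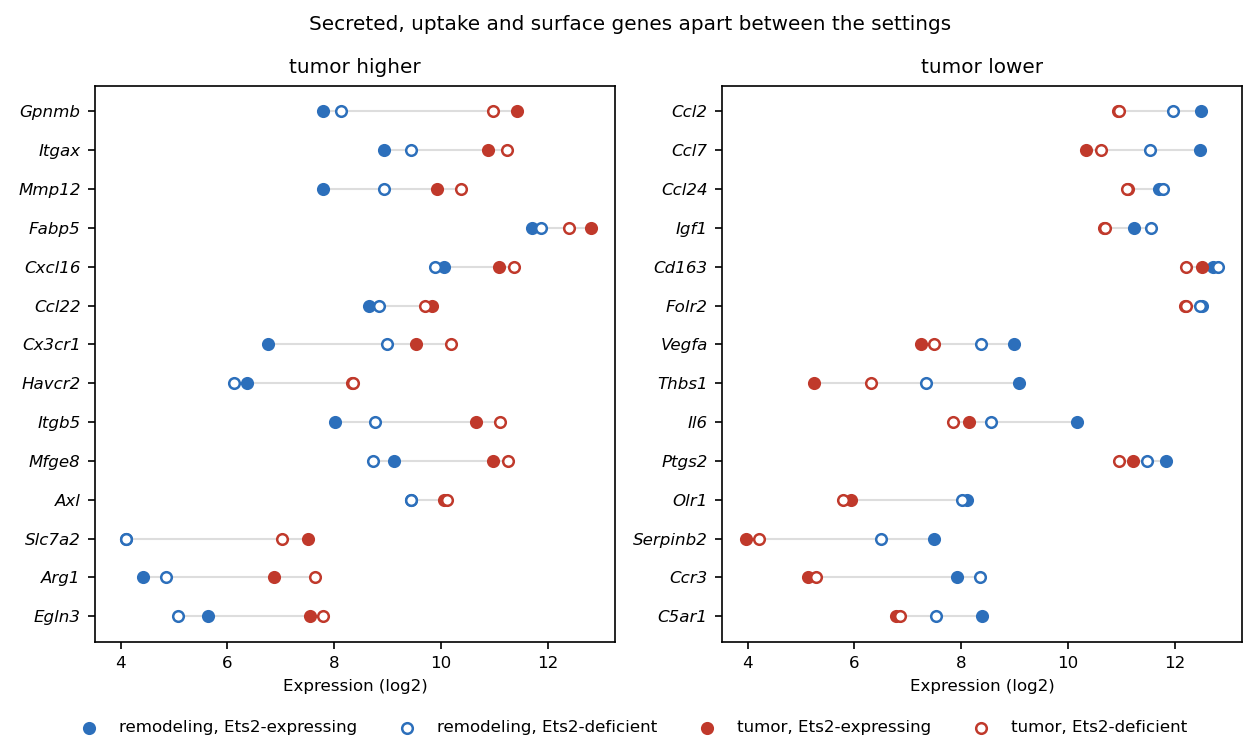
Expression (log2) of 28 genes of secreted, uptake, surface and metabolic functions, taken from those named in the text as apart with tumor higher (left) or lower (right), with 1 point per array. Gpnmb and Itgb5 show wide gaps from bright remodeling values, whereas Slc7a2 and Arg1 start from dim remodeling values; Ccl2, Ccl7 and Vegfa are bright on all arrays and lower in tumor.

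Tissue-resident macrophage genes leaned the other way. Of 17 bright members, 1 was apart with tumor higher and 9 with tumor lower, against 21.4% of all bright genes, and the median difference was -0.20. The differences were small. Igf1, a growth factor that macrophages supply to tissue, read 11.23 and 11.55 against 10.68 and 10.69. Folr2, a folate receptor of resident macrophages, read 12.51 and 12.47 against 12.19 and 12.22. Pf4 read 12.72 and 12.74 against 12.44 and 12.39. The exception was Ccl8, a monocyte-attracting chemokine, at 12.62 and 12.70 against 13.01 and 13.10. All of these genes were bright on every array.

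Of 21 bright chemokine genes, 7 were apart in each direction, beside 31.4% and 21.4% of all bright genes, so that the tumor-high share was near that of all genes and the tumor-low share above it. Ccl2 and Ccl7, which draw CCR2-positive monocytes, were both lower in tumor. Ccl2 read 12.50 and 11.97 against 10.94 and 10.95, and Ccl7 read 12.48 and 11.53 against 10.35 and 10.61. Ccl24, an eotaxin, read 11.70 and 11.78 against 11.13 and 11.11. The tumor arrays were higher for Cxcl16, a membrane-anchored ligand of CXCR6 (10.05 and 9.90 against 11.10 and 11.36), and for Ccl22, a ligand of CCR4 (8.65 and 8.85 against 9.83 and 9.71). Among the chemokine receptors, 2 of 13 bright members were apart with tumor higher and 4 with tumor lower, beside the same shares. Cx3cr1, the fractalkine receptor, read 6.77 and 8.99 on the remodeling arrays and 9.53 and 10.19 on the tumor arrays, so its difference was 2.76 for the Ets2-expressing and 1.19 for the Ets2-deficient label. Ccr2 was apart by only 0.09 on its brightest probe set and lost that under another scaling. Another bright probe set of the gene had a gap of 0.30, and a dimmer one overlapped.

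The widest gap with tumor lower was that of Ccr3, and eosinophil markers were among the 15 widest. Ccr3 read 7.91 and 8.35 on the remodeling arrays and 5.13 and 5.28 on the tumor arrays. Its gap was 2.63 log2 and its mean difference -2.93 ± 0.23 (SE, 2 arrays a side; limma adjusted p = 0.0217). Siglecf, a lectin of eosinophils and alveolar macrophages, read 10.17 and 9.90 against 8.35 and 8.25. Il5ra, the interleukin-5 receptor chain, read 6.39 and 6.30 against 4.96 and 4.85. Alox15, a lipoxygenase of eosinophils and resident macrophages, read 9.39 and 8.88 against 8.09 and 7.70. These were the 4 bright members of the eosinophil list, all apart with tumor lower, beside 21.4% of all bright genes. Ccr3 and Il5ra were bright only on the remodeling arrays, so the list was read over all 7 measured. Of these, 5 were apart with tumor lower and 0 with tumor higher. Epx, an eosinophil granule peroxidase and the 5th, was dim on every array, and the granule protein genes Prg2 and Prg3 were dim and overlapped. The median over the 7 was -1.24 and the summed intensity 2200 and 1887 on the remodeling arrays and 714 and 626 on the tumor arrays. Rnase2a, an eosinophil-associated ribonuclease gene outside the list, read 11.78 and 11.98 against 10.02 and 8.78. The part of eosinophil RNA in the remodeling values was not tested.

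The other leading tumor-low genes differed in kind. Serpinb2, the plasminogen activator inhibitor 2, read 7.49 and 6.51 on the remodeling arrays and 3.97 and 4.21 on the tumor arrays. It was the only 1 of the 28 with both tumor arrays below their 25th percentiles. F5, coagulation factor V, read 11.18 and 11.14 against 9.44 and 9.35. Gadd45a, a stress-inducible growth arrest gene, read 9.66 and 9.59 against 7.98 and 7.95. Sema7a, a membrane semaphorin that binds integrins, read 8.75 and 8.29 against 6.70 and 6.62. In each of these genes the 2 tumor arrays were within 0.25 of each other. Egfr read 11.40 and 10.78 against 9.34 and 9.20, but its other bright probe set overlapped between the groups. Of 8 tumor-low genes with several bright probe sets, 7 were apart the same way in every one, and Egfr was the exception.

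Vascular and growth factor genes followed. Thbs1, thrombospondin 1, read 9.09 and 7.34 on the remodeling arrays and 5.25 and 6.32 on the tumor arrays. Vegfa read 9.0 and 8.37 against 7.24 and 7.49. Among 16 bright angiogenesis genes, 6 were apart with tumor lower and 2 with tumor higher, beside 21.4% and 31.4% of all bright genes. The growth factor ligand list had 4 and 3 of 12 bright members apart in these directions. Tgfb3, a TGF-beta ligand, was higher in tumor at 5.55 and 4.57 against 7.17 and 8.28. Pmepa1, a target gene and feedback inhibitor of TGF-beta signaling chosen after its values were seen, read 10.77 and 10.29 against 12.77 and 13.13. Hbegf, an EGF receptor ligand, read 10.47 and 8.70 against 8.54 and 8.30, and its gap was only 0.16 because of the spread between the remodeling arrays.

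Among arginine handling and inflammatory genes, the tumor-high shares were near that of all bright genes. Slc7a2, an arginine transporter, read 4.09 on each remodeling array and 7.52 and 7.02 on the tumor arrays. Arg1, arginase 1, read 4.42 and 4.86 against 6.88 and 7.63. Both were dim on the remodeling arrays. In the alternative activation and arginine list, 5 of 16 bright members were apart with tumor higher and 6 with tumor lower. In the inflammatory cytokine and effector list it was 5 of 16 in each direction. Over all bright genes the shares were 31.4% with tumor higher and 21.4% with tumor lower. Il6 read 10.18 and 8.56 against 8.15 and 7.86, and Ptgs2, the inducible cyclooxygenase, read 11.84 and 11.49 against 11.23 and 10.96. C5ar1, the receptor for the complement fragment C5a, read 8.39 and 7.53 against 6.77 and 6.86, and the complement list had 4 of 15 bright members apart with tumor lower and 3 with tumor higher. For 5 of the 16 pattern recognition receptors tumor was higher and for 6 it was lower, and Tlr1 (8.47 and 9.21 against 9.68 and 10.09) and Tlr4 (9.86 and 10.15 against 9.04 and 9.47) stood on opposite sides.

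Antigen presentation genes were higher on the tumor arrays by small amounts. Of 9 MHC class II genes measured, all bright, 8 were apart with tumor higher and 0 with tumor lower, and the median difference was 0.40 (0.23 without the Ets2-expressing remodeling array). H2-Eb1, a class II beta chain, read 9.28 and 9.35 against 10.01 and 9.83. Ciita, the class II transactivator, read 6.16 and 6.77 against 7.10 and 7.49. H2-Ab1, at 12.67 and 12.89 against 13.26 and 13.10, lost its separation under another scaling. Of 11 class I and immunoproteasome genes, 8 were apart with tumor higher and 0 with tumor lower, with a median of 0.28 (0.12 without the Ets2-expressing tumor array). Tap1, a peptide transporter, read 6.51 and 6.65 against 7.60 and 7.25. Of 25 bright interferon response genes, 9 were apart with tumor higher and 2 with tumor lower. Both MHC lists thus held a larger share of tumor-high genes than the 31.4% of all bright genes. None of their members was called by limma. Beside them, the T and NK cell list had 8 of 13 bright members apart with tumor higher and 1 with tumor lower, and a summed intensity of 5118 and 4669 against 6714 and 6336. The dendritic cell list had 5 of 14 with tumor higher and 4 with tumor lower. Its 2 members apart at least 2-fold, Itgax and Itgae, were both higher in tumor. Itgax is given above, and Itgae, dim on the remodeling arrays, read 4.97 and 4.59 against 6.14 and 6.78. Zbtb46, a factor of conventional dendritic cells, was lower in tumor at 8.66 and 8.80 against 8.12 and 7.76.

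Of 32 genes of the mitochondrial respiratory chain, 21 were apart with tumor higher and 1 with tumor lower, beside 31.4% and 21.4% of all bright genes, and the median difference was 0.27. Ndufb9, a complex I subunit, read 10.00 and 10.04 against 10.51 and 10.70, and Uqcrc1, of complex III, read 7.35 and 7.67 against 8.07 and 8.24. Ndufs5, at 8.86 and 9.12 against 8.57 and 5.91, was the exception, with a low value on the Ets2-deficient tumor array. Of 26 lysosome genes, 15 were apart with tumor higher and 2 with tumor lower. The acid protease Ctsd read 11.72 and 11.64 against 12.52 and 12.24. Cholesterol synthesis and uptake genes had 5 of 11 bright members apart with tumor higher and 1 with tumor lower. Fdft1, squalene synthase, read 7.24 and 7.63 against 8.59 and 8.73. Medians of the lysosome and respiratory chain lists stayed above 0 under all 4 scalings, but fell to 0.05 and 0.08 after median centring.

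Of 23 bright glycolysis and hypoxia genes, 13 were apart with tumor higher and 6 with tumor lower, beside 31.4% and 21.4% of all bright genes. Egln3 and Pfkl, given next, were dim on both remodeling arrays and bright only through the tumor arrays, so all 24 measured genes were read as well. Of these, 13 were apart with tumor higher and 6 with tumor lower. Egln3, an oxygen-sensing prolyl hydroxylase, read 5.63 and 5.08 against 7.55 and 7.80, and the glycolytic enzyme genes Pfkl (6.10 and 5.53 against 6.93 and 7.32) and Tpi1 (9.81 and 9.95 against 10.42 and 10.66) were also higher in tumor. Lower in tumor were Vegfa, given above, Pfkfb3, which makes an activator of glycolysis (10.67 and 10.06 against 9.80 and 9.61), and the lactate exporter Slc16a3 (9.71 and 8.99 against 8.78 and 8.59). Slc2a3, a glucose transporter chosen after its values were seen, read 10.42 and 10.70 against 8.54 and 9.40.

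Heat shock genes leaned the other way, with 11 of 19 bright members apart with tumor lower, against 21.4% of all bright genes, 1 with tumor higher, and a median of -0.27 (-0.13 without the Ets2-expressing remodeling array). Dnaja1, a co-chaperone of HSP70, read 11.43 and 10.96 against 10.37 and 10.32, and Hspa1b read 12.65 and 12.62 against 12.12 and 12.40. Hspb1, the small heat shock protein also made by epithelium, was the reverse at 7.66 and 6.48 against 7.84 and 9.04. In the immediate early and dissociation stress list, which shares some of these genes, 8 of 22 bright members were apart with tumor lower and 1 with tumor higher. The circadian clock list had 6 of 15 apart with tumor lower and 2 with tumor higher, beside 21.4% and 31.4% of all bright genes, and a median of -0.53. That median rested on 1 array, since it was -0.06 without the Ets2-expressing remodeling array. The list's summed intensity was 12147 on that array, 5674 on the other remodeling array, and 5984 and 6499 on the tumor arrays. Dbp, a clock output factor, read 11.43 and 8.77 against 8.73 and 8.35, and Per2, a clock repressor, read 9.09 and 5.77 against 6.37 and 5.23 and was not apart. Clock read 9.32 and 9.21 against 8.61 and 8.53, whereas Bhlhe40, a repressor of clock genes, read 10.45 and 10.33 against 11.04 and 11.22. The hour of collection is not given in the sources used here.

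Among ETS family genes, 10 of 17 bright members were apart with tumor lower and 3 with tumor higher, beside 21.4% and 31.4% of all bright genes. The 3 were Spi1, given above, and the epithelial factors Elf5 and Ehf, of which Ehf read 6.46 and 6.41 against 8.82 and 9.46. Lower in tumor were Elf4 (8.0 and 7.90 against 5.76 and 6.85), Fli1 (10.80 and 10.91 against 10.18 and 10.27), Spic (8.07 and 8.60 against 7.45 and 7.42) and Gabpa (9.02 and 8.99 against 8.43 and 8.49). Of integrin genes, 5 of 11 bright members were apart with tumor higher and 3 with tumor lower. Iron and heme genes had 3 of 12 apart with tumor higher and 6 with tumor lower, and Slc40a1, the iron exporter ferroportin, read 10.56 and 11.52 against 10.32 and 10.04. The cytosolic ribosomal protein genes had 8 of 23 apart with tumor higher and 0 with tumor lower, close to the 31.4% of all bright genes in the first direction, and a median of 0.07 that turned negative after either centring.

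**Figure D4:**
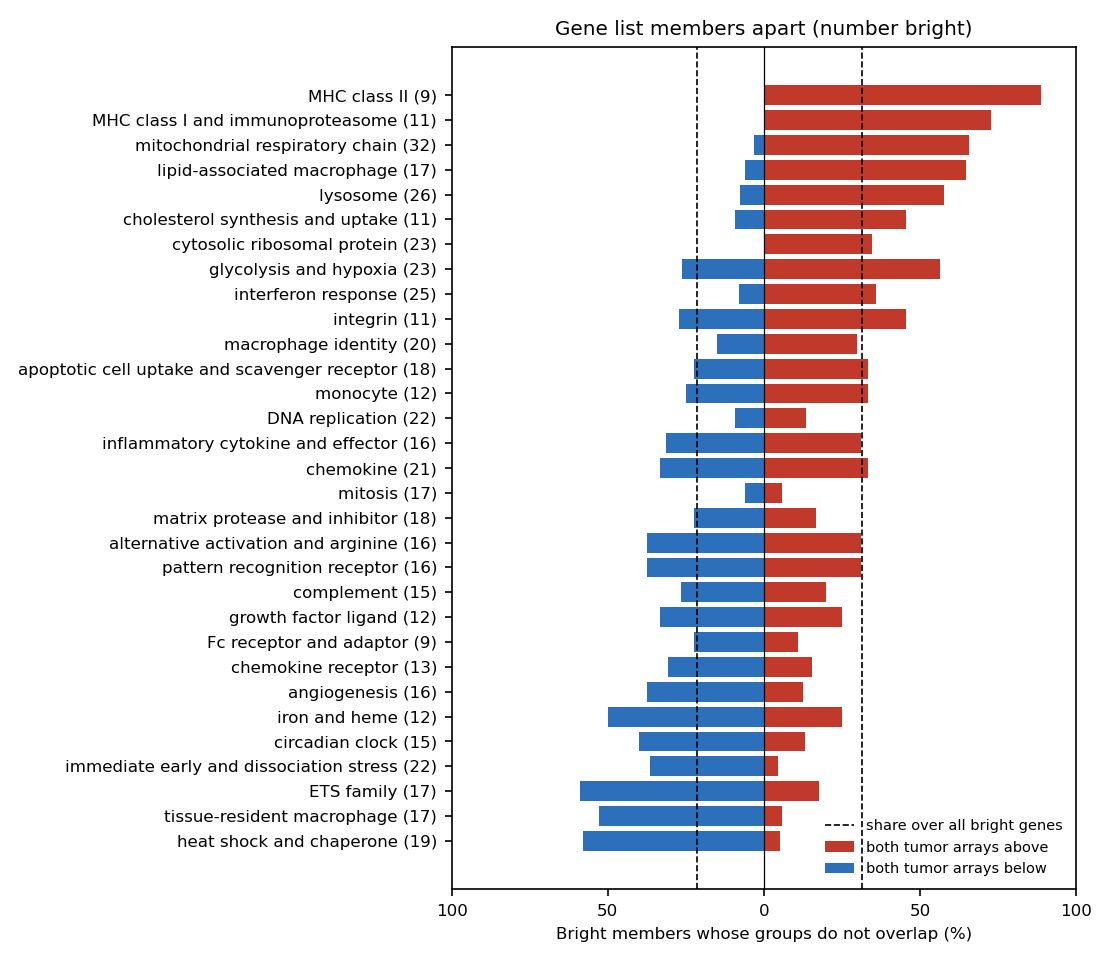
For each gene list other than the cell type marker lists, the percent of bright members apart with tumor higher (right) or lower (left), with the number of bright members in brackets; dashed lines give the 31.4% and 21.4% of all bright genes. MHC class II genes reach farthest to the right with 8 of 9 members, and heat shock genes lie at the bottom with 11 of 19 members tumor-lower.

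Proliferation genes were mostly not apart, beside 31.4% and 21.4% of all bright genes apart with tumor higher and lower. Of 17 bright mitosis genes, 1 was apart in each direction, and of 22 bright DNA replication genes 3 were apart with tumor higher and 2 with tumor lower. Monocyte genes had 4 of 12 apart with tumor higher and 3 with tumor lower, and Plac8, a gene of Ly6C-high monocytes, read 10.07 and 10.44 against 8.97 and 9.37. Fc receptor genes had 1 and 2 of 9, and matrix protease and inhibitor genes 3 and 4 of 18. Adipocyte genes had 1 and 3 of 6, endothelial genes 0 and 1 of 5, and erythroid and platelet genes 0 and 3 of 5 bright members apart in these directions. Mast cell and basophil genes had 0 and 4 of 8, with Gata2 at 8.37 and 7.58 against 6.70 and 6.51. The other 4 bright members, Mcpt4, Cma1, Cpa3 and Tpsb2, overlapped, with both tumor arrays between the 2 remodeling arrays. Cpa3, for example, read 8.93 and 6.29 against 7.89 and 7.23. Neutrophil genes had 2 and 1 of 9. The 2 were Lcn2 and Ltf, lactoferrin, which is also a milk protein (5.87 and 4.52 against 9.53 and 10.51). Ltf was dim on both remodeling arrays and bright only through the tumor arrays. Over all 15 neutrophil genes measured, 5 were apart with tumor higher and 1 with tumor lower. S100a8, a granulocyte calgranulin gene, overlapped between the groups at 12.50 and 11.87 against 11.32 and 12.80.

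Fibroblast genes were in no case apart. None of the 16 bright members was apart in either direction, and the summed intensity was 29873 and 9277 on the remodeling arrays and 16128 and 16927 on the tumor arrays. The 2 remodeling arrays thus differed from each other by more than the tumor arrays did from either, with both tumor arrays in between. Dcn, a collagen-binding proteoglycan, read 11.85 and 9.24 against 9.79 and 9.50. The list median was -0.76 for the Ets2-expressing and 1.05 for the Ets2-deficient label. A gene with such a spread between the remodeling arrays cannot be apart unless both tumor arrays lie outside that spread, which limits what the comparison can show for stromal genes.

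**Figure D5:**
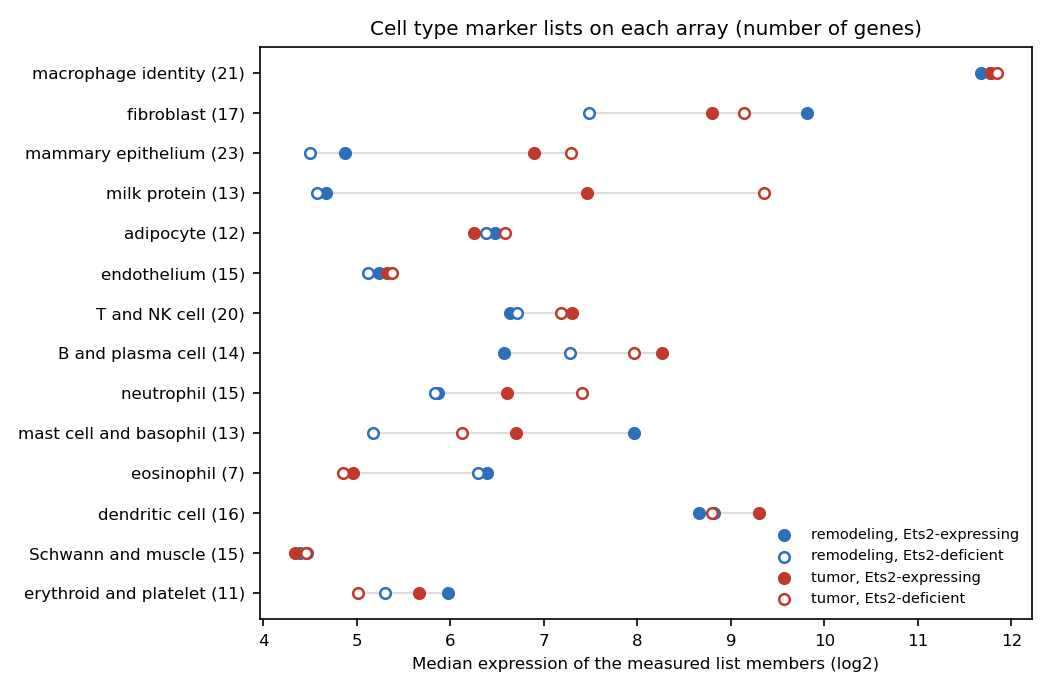
Median expression (log2) of the measured members of each cell type marker list on each of the 4 arrays, with the number of measured genes in brackets. The macrophage list is near 11.8 on all arrays, epithelial and milk protein lists are higher on both tumor arrays, the eosinophil list is higher on both remodeling arrays, and the fibroblast list is highest on the Ets2-expressing and lowest on the Ets2-deficient remodeling array.

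The limma test compared the groups against the spread between the 2 Ets2 labels of a side, so it has no error between animals. At a Benjamini-Hochberg adjusted p below 0.05 it called 59 genes with tumor higher (0.79%) and 5 with tumor lower (0.0669%). All of these were also apart at least 2-fold. The 5 were Ccr3, Olr1, F5, Gadd45a and Siglecf. With the Ets2 label as a block, limma called 0 genes in each direction, with a smallest adjusted p of 0.0842, and 1238 genes had an unadjusted p below 0.05, against 1255 without the block. For a single gene, the smallest two-sided p that an exact permutation test of 2 against 2 arrays can give is 0.333, so the gaps themselves are descriptions of these 4 arrays.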

How the data were processed

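Expression was measured on 4 Affymetrix arrays, 1 for each genetic group, from sorted macrophages. Per the labels' protocols, the NuGEN Ovation system amplified cDNA from about 10 ng of RNA. The authors deposited log2 values for 22690 probe sets. GCOS and RMA appear in the submitters' processing notes, and versions, settings and the arrays normalized together are not given in the sources used here. Values were used as deposited, and array depth has no count equivalent, so that the number of arrays limits the precision.

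Probe sets naming exactly 1 gene (20380) were kept, 20364 were matched to RefSeq by Entrez identifier, and a gene's brightest probe set, by its mean over the arrays, stood for it. The gap was the lower tumor value minus the higher remodeling value, or the reverse. limma 3.58.1 in R 4.3.3 fitted tumor minus remodeling (lmFit, eBayes) over all bright genes with Benjamini-Hochberg adjustment, and was checked on simulated data. List medians were taken over all measured members. The labels do not name separate animals, so p-values measure only the spread between these samples.

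Genes were named by rule: the 15 widest gaps in each direction, and within each of 44 gene lists up to 4 members apart in each direction, up to 4 by size of difference in marker lists, and up to 4 with the largest difference between labels in lists whose label medians opposed each other; Ets2 was always named. Genes named outside that rule are Lrg1, Igk, Ighm, Epcam, Apoc1, Acp5, Pmepa1, Slc2a3, Mertk, Dbp and Per2. Also outside it are the list members given as dim, those at the threshold and those in the closing observations. All of these were chosen after their values were seen. The members and lists were chosen with earlier results of these data known. Alternatives were other scalings, filters, probe set choices, thresholds, variance models, a block and leaving out arrays. The Ets2 label was used as the pairing: the block fit is given with the limma counts.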

Additional observations from a re-analysis of the deposited data

Results flagged for a closer look

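In 17 of 44 lists the median tumor minus remodeling difference had opposite signs for the 2 Ets2 labels, and in 7 of them both medians were more than 0.1 from 0. For these 7, the label difference (Ets2-deficient minus Ets2-expressing, log2) was 1.82 for fibroblast genes, 1.13 for matrix protease and inhibitor genes, 1.03 for neutrophil genes, 0.80 for angiogenesis genes, 0.76 for growth factor ligands, 0.73 for inflammatory cytokine and effector genes and 0.46 for alternative activation and arginine genes. With 1 array for each group and label, these differences were not tested. The fibroblast list's summed intensity was 29873 and 9277 on the remodeling arrays labelled Ets2-expressing and Ets2-deficient, and its part in the other 6 lists was not tested.

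Among 2246 probe sets that name no gene or several, 1008 were bright. Of these, 12 (1.19%) were apart at least 2-fold with tumor higher and 10 (0.992%) with tumor lower, beside 2.68% and 0.375% of the bright genes. The lean toward tumor-high seen among the genes was thus small here. These probe sets were in no comparison above.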

How the results depend on the processing

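The 2-fold gap counts of 200 and 28 kept within 1.5 times in the tumor-high direction under every scaling and probe set choice. With tumor lower they were 50 after median centring, 43 after centring on hybridization controls, 17 with the mean of a gene's probe sets and 50 with the probe set of largest variance. Stricter filters gave 79 and 14 (75th percentile) and 43 and 16 (all 4 arrays at or above their medians), and a 1.5-fold gap gave 396 and 129. Leaving out each array gave 235 to 366 tumor-high and 58 to 249 tumor-low genes. The highest tumor-low count, 249, came without the Ets2-deficient remodeling array. Leaving out an array can only keep or widen a gap, so the rise of these counts shows nothing about stability. A gene can still leave the bright set. Of the 200 tumor-high genes, 179 to 200 stayed, with 179 when the Ets2-deficient tumor array was left out. All 28 tumor-low genes stayed each time. The limma counts of 59 and 5 became 189 and 62 after median centring, 164 and 40 after hybridization control centring, 111 and 22 with a variance trend, and 108 and 10 with the probe set of largest variance. The tumor-low count was 10 after quantile normalization and 9 with the 75th percentile filter, and the tumor-high count was 16 for genes bright on all arrays. With no filter they were 8 and 0 (1743 genes at unadjusted p below 0.05). Under the Ets2 label as replicate block limma called 0 and 0, with 1238 genes at unadjusted p below 0.05. Leaving out any array also gave 0 and 0, with 762 to 1210 such genes, and the lone array was then assumed to vary like the other side. The replicate numbers stand for the Ets2 labels, and the check for pairing needs 3 pairs, so same-label arrays share only a label. No gap of a named gene reversed in sign. Medians of 8 of the 44 lists, all within 0.12 of 0, changed sign under another scaling. The cause of these moves was not tested.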

Other observations

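Some genes moved in opposite directions in the 2 Ets2 labels and are in neither gap list. Of the 7473 bright genes, 53 were lower in tumor for the Ets2-expressing label and higher for the Ets2-deficient label, each by at least 2-fold. In 2 genes (Ifnz and Sec16b) the reverse held. These were chosen after their values were seen. The long pentraxin Ptx3, a secreted pattern recognition protein, read 10.73 and 4.96 on the remodeling arrays and 7.55 and 7.19 on the tumor arrays. Ackr3, a scavenging receptor for CXCL12, read 10.91 and 6.38 against 8.33 and 8.31. Acod1, which makes itaconate in activated macrophages, read 9.03 and 6.66 against 7.23 and 8.45. Among matrix genes, Col1a2 read 11.90 and 9.76 against 10.60 and 11.13, and Fstl1 read 11.12 and 8.29 against 9.52 and 9.74. For these genes except Acod1, the 2 tumor arrays were within 0.55 of each other, and the 2 remodeling arrays were at least 2 log2 units apart. In the fibroblast list, 5 of 17 measured genes, 16 of them bright, were among the 53, beside 53 of all 7473 bright genes.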
